A study of Haemaphysalis flava with 2 samples.

Results

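Chaperones and folding enzymes of the endoplasmic reticulum (ER) were compared between salivary glands of engorged ticks, which have finished their blood meal, and of semi-engorged ticks of the hard tick Haemaphysalis flava. The set was chosen by words in the protein descriptions that the deposited table gives for its contigs, the assembled transcript pieces. The words were those of disulfide isomerases, calreticulin, calnexin, the glucose-regulated chaperones, ERO1, peptidyl-prolyl isomerases and cyclophilins, or the phrase endoplasmic reticulum itself. They matched 40 contigs of 54357, of which 20145 carry a description. The 40 contigs match 38 different proteins under 28 names, and 36 of the 40 have a tick protein as the best match. The words reach beyond the ER: 20 contigs matched the words for peptidyl-prolyl isomerases and cyclophilins, a family also found in the cytosol and nucleus. Of these, 5 carry names of proteins known from outside the ER. A cyclophilin ligand, by its name a partner rather than an isomerase, is also counted among the 20. Polyadenylated RNA was sequenced from 1 library per stage, with 57892372 reads in engorged and 54039984 reads in semi-engorged glands. According to the series text, 100 glands came from 50 engorged and 50 semi-engorged ticks. How many of these went into each library is not given there, and neither strain, sex nor feeding time in days is used here. With no replicate, no difference below has a test, and every value describes these libraries.

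Secreted and membrane proteins enter the ER as unfolded chains. There, Hsp70-type chaperones hold them, calreticulin and calnexin hold those that carry sugar chains, disulfide isomerases form and rearrange the bonds between cysteines, and peptidyl-prolyl isomerases turn the bonds before prolines. The salivary gland of a feeding tick secretes large amounts of protein into the host skin, much of it small and rich in disulfide bonds.

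Most of the abundant chaperones and disulfide isomerases of the ER were at far lower levels in engorged glands. By the size rule below, 0 of the 10 members with most reads over both libraries were higher in engorged and 8 in semi-engorged glands. Of all tested contigs, 13.0% were higher in engorged and 15.5% in semi-engorged glands. The other 2 of the 10 were a calcium pump and a thioredoxin-type isomerase. Reads of the semi-engorged library helped to pick these 10, so their count is no separate support for a direction. The 40 contigs together held 3125 CPM (reads per 1000000 reads of the library) in engorged glands and 13691 CPM in semi-engorged glands. As shares these were 0.313% (Wilson 95% interval 0.311% to 0.314%) of all reads in engorged glands and 1.37% (1.37% to 1.37%) in semi-engorged glands, a sum 4.38-fold lower in engorged glands (exact 95% interval 4.36 to 4.40). These and all later intervals cover counting error only, since each stage has 1 library. The reads carry no molecular identifiers, so copies of a molecule cannot be told apart and the intervals may be too narrow. In bulk glands, fewer secreting cells and less RNA per cell cannot be told apart.

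The comparison used contigs with 20 or more reads over both libraries, which all 40 members had. A contig was called when its log2 fold was 1 or more in size, computed as engorged over semi-engorged level with 1 CPM added to both. Of the 40 contigs, 2 were higher in engorged glands, where 13.0% of all tested contigs and 15.4% of those with a description were. On the semi-engorged side 15 of 40 were higher, 37.5%, where 15.5% of all tested contigs and 16.6% of those with a description were. At a log2 fold of 2, 1 of 40 was higher in engorged glands, beside 3.68% of all tested contigs, and 8 of 40 in semi-engorged glands, beside 6.72%. The other 23 contigs were in neither class. The median log2 fold of the set was only -0.28, beside -0.049 over all tested contigs and 0.012 over the described ones. The set falls into an abundant part with large folds and a scarcer part with mostly small ones.

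**Figure D1:**
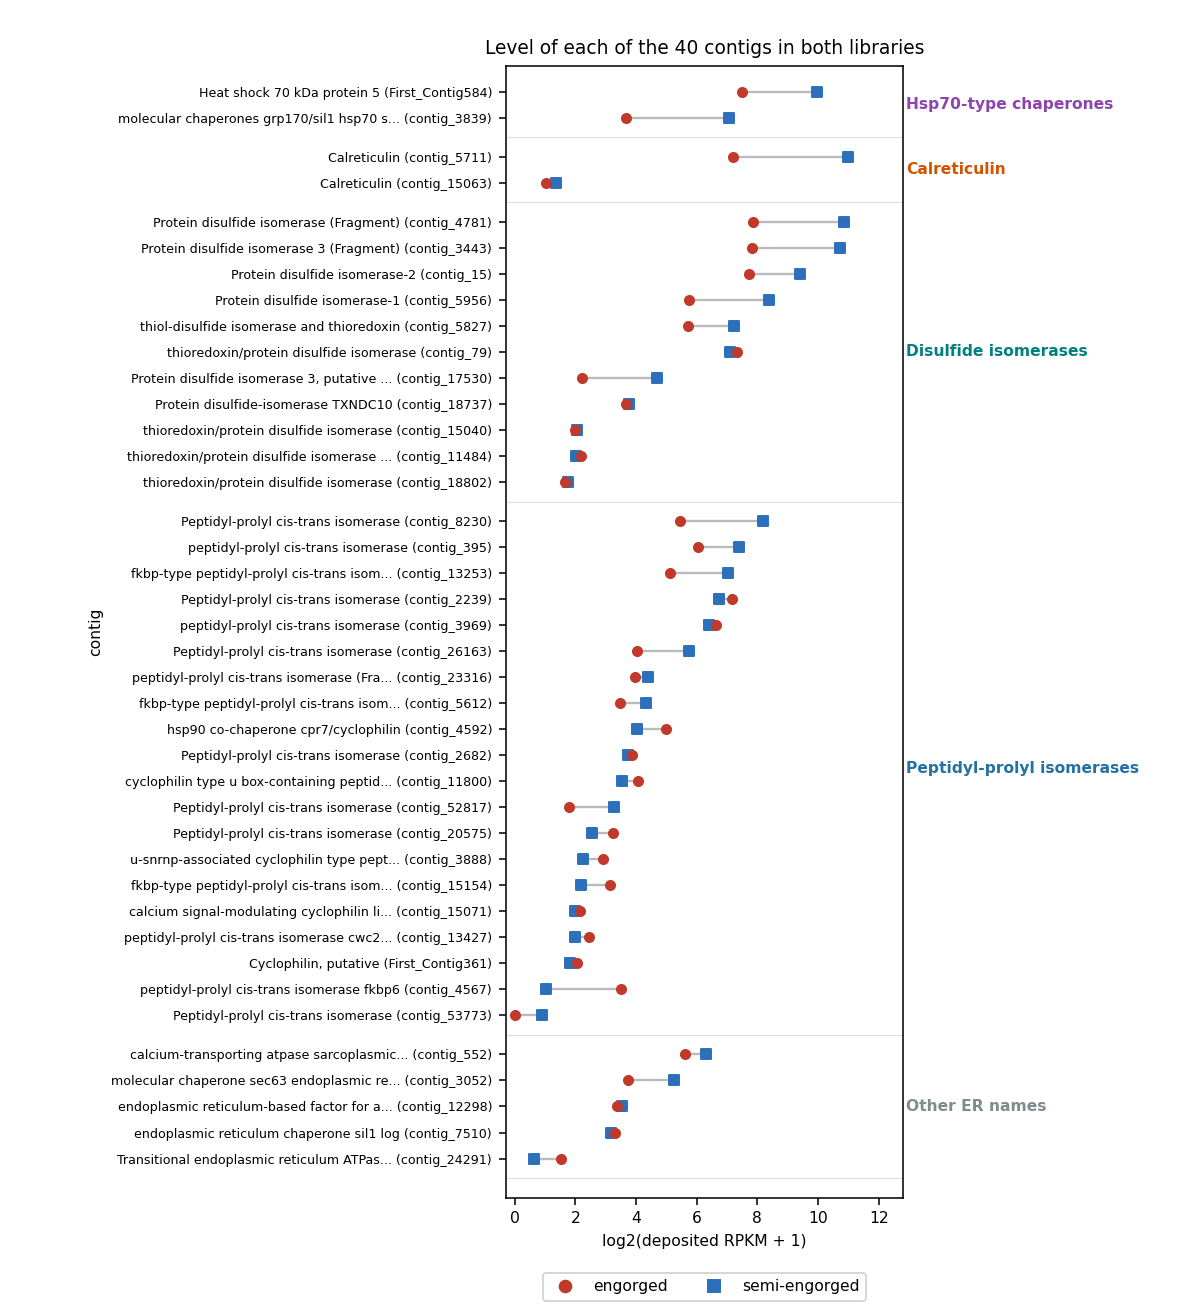
Level of each contig as log2(deposited RPKM + 1) on the x axis, with 1 row per contig grouped by role, red circles for the engorged and blue squares for the semi-engorged library, and a grey line joining both. The longest gaps to the right, where the semi-engorged library is higher, belong to calreticulin (contig_5711), the grp170 chaperone and disulfide isomerases contig_4781 and contig_3443. The peptidyl-prolyl isomerase contig_8230 comes next. The only long gap the other way belongs to fkbp6 (contig_4567).

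Both Hsp70-type chaperones were lower in engorged glands. Heat shock 70 kDa protein 5 (First_Contig584), known as BiP or GRP78, is the main Hsp70 of the ER and binds newly made chains. It had 28407 reads (491 CPM) in engorged glands and 148495 reads (2748 CPM) in semi-engorged glands. It was thus the member with most reads over both libraries. A grp170 chaperone (contig_3839), in mammals an exchange factor that resets BiP after each cycle, had 2788 reads (48.2 CPM) in engorged and 29766 reads (551 CPM) in semi-engorged glands, an 11.4-fold lower level (11.0 to 11.9). The fold of grp170 was thus larger than that of BiP, at 5.60-fold (5.53 to 5.67), beyond counting error. A contig of sil1 (contig_7510), another exchange factor of BiP, had 708 reads (12.2 CPM) in engorged and 611 reads (11.3 CPM) in semi-engorged glands, and its ratio of 1.08 (0.969 to 1.21) could not be told from 1 at this depth. It was named after its values were seen.

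Calreticulin had the largest fold of the set toward semi-engorged glands. This calcium-binding chaperone holds glycoproteins while they fold. Its main contig (contig_5711) had 12003 reads (207 CPM) in engorged glands and 154256 reads (2854 CPM) in semi-engorged glands, a 13.8-fold lower level (13.5 to 14.0). A contig of similar length with the same best-matching protein (contig_15063), named after its values were seen, had 86 reads in engorged and 119 reads in semi-engorged glands, 1.48-fold lower (1.11 to 1.98). The main contig therefore carries nearly all calreticulin reads of both libraries. Contigs with 1 best-matching protein can be copies or variants of a gene, and how reads were divided between them is not known here. No description matched calnexin, endoplasmin, grp94 or ERO1, the oxidase that recharges disulfide isomerases, so the set holds no value for them.

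Of 11 disulfide isomerase contigs, 0 were higher in engorged glands and 6 (54.5%) in semi-engorged glands, beside 13.0% and 15.5% of all tested contigs. The sum of the 11 was 4.08-fold lower in engorged glands (4.05 to 4.11). With 1458 CPM in engorged and 5947 CPM in semi-engorged glands, they were the most abundant role in both. The log2 folds of these 6 lay between -2.98 and -1.52, and those of the other 5 between -0.091 and 0.20. The lower group holds the 5 contigs named protein disulfide isomerase alone or with a number and 1 thioredoxin-type name, and the group near 0 holds TXNDC10 and 4 thioredoxin-type names, a grouping made after the values were seen.

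Protein disulfide isomerase-2 (contig_15) had 34010 reads (587 CPM) in engorged and 100042 reads (1851 CPM) in semi-engorged glands, 3.15-fold lower (3.11 to 3.19). Protein disulfide isomerase 3 (contig_3443) had 14923 reads (258 CPM) in engorged and 104451 reads (1933 CPM) in semi-engorged glands, 7.50-fold lower (7.37 to 7.63). A fragment named protein disulfide isomerase (contig_4781) had 6921 reads (119.5 CPM) in engorged and 51339 reads (950.02 CPM) in semi-engorged glands, 7.95-fold lower (7.75 to 8.15). The intervals of the folds of this fragment and of isomerase 3 do not overlap, and both stand apart from the fold of isomerase-2.

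Protein disulfide isomerase-1 (contig_5956) had 5157 reads (89.1 CPM) in engorged and 30537 reads (565 CPM) in semi-engorged glands, 6.34-fold lower (6.16 to 6.53). A further contig of isomerase 3 (contig_17530), whose best match is the protein of another tick, Ixodes scapularis, had 502 reads (8.67 CPM) in engorged and 3140 reads (58.1 CPM) in semi-engorged glands. It was 6.70-fold lower (6.10 to 7.38), and its interval meets that of contig_3443 only at the edge. Isomerase-1 and isomerase-2, both named after proteins of the related tick Haemaphysalis longicornis, thus differed in the size of their fold beyond counting error.

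The thioredoxin-type names behaved differently among themselves. A thiol-disulfide isomerase and thioredoxin (contig_5827) had 6906 reads (119 CPM) in engorged and 18600 reads (344 CPM) in semi-engorged glands, 2.89-fold lower (2.81 to 2.97). By contrast, a thioredoxin/protein disulfide isomerase (contig_79) had 13820 reads (239 CPM) in engorged and 11191 reads (207 CPM) in semi-engorged glands, a ratio of 1.15 (1.12 to 1.18), below the size rule. TXNDC10 (contig_18737), known in humans as a membrane-bound disulfide isomerase of the ER, had 1570 reads (27.1 CPM) in engorged and 1565 reads (29.0 CPM) in semi-engorged glands, a ratio of 0.936 (0.873 to 1.005). The 3 scarcest thioredoxin-type contigs had 62 to 385 reads in engorged and 63 to 306 reads in semi-engorged glands. A pair of them (contig_15040 and contig_18802) share a best-matching protein and had log2 folds of -0.064 and -0.065.

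**Figure D2:**
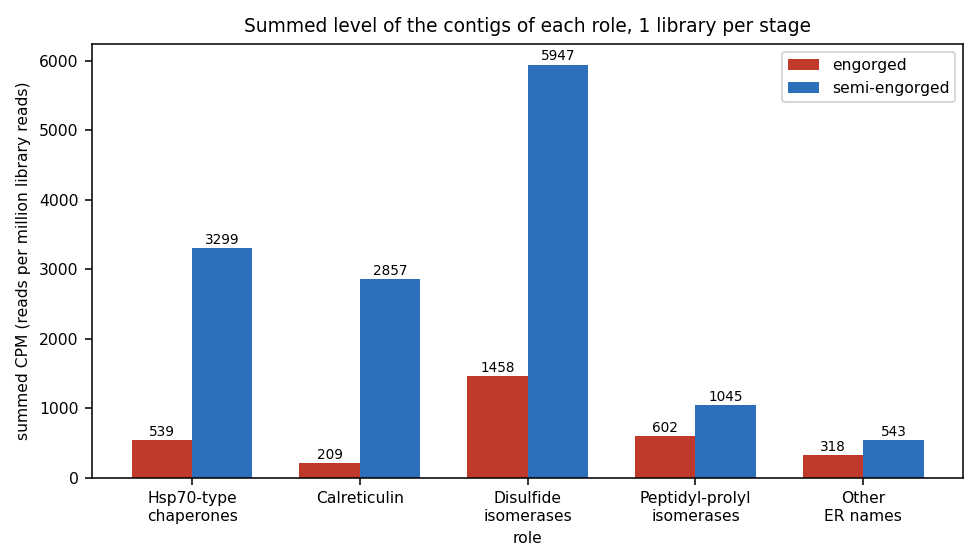
Summed level in CPM on the y axis for the contigs of each role on the x axis, with red bars for the engorged and blue bars for the semi-engorged library, 1 library each and no error bars. Disulfide isomerases are the tallest bars in both libraries, at 1458 CPM in engorged and 5947 CPM in semi-engorged glands, and calreticulin has the largest ratio between its bars, at 209 CPM in engorged and 2857 CPM in semi-engorged glands.

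The 20 contigs of peptidyl-prolyl isomerases and cyclophilins, with the cyclophilin ligand among them, did not share a direction. Of these 20, 1 was higher in engorged glands and 5 in semi-engorged glands, beside 13.0% and 15.5% of all tested contigs. The other 14 were in neither class, and the log2 folds of the 20 ran from -2.72 to 2.86. Their sum was 602 CPM in engorged and 1045 CPM in semi-engorged glands, 1.74-fold lower (1.71 to 1.76). The median log2 fold of 0.22 turned to -0.0045 when the median ratio of abundant contigs was set to 0, so no direction is given for it. These enzymes work in several compartments, and the names of most of these contigs do not say in which.

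Among the isomerases lower in engorged glands, contig_8230 had the most reads over both libraries, with 3182 reads (55.0 CPM) in engorged and 19906 reads (368 CPM) in semi-engorged glands, 6.70-fold lower (6.46 to 6.96). The isomerase contig_395 had 4066 reads (70.2 CPM) in engorged and 9875 reads (183 CPM) in semi-engorged glands, 2.60-fold lower (2.51 to 2.70). An fkbp-type isomerase (contig_13253), of the family that binds the drug FK506, had 1359 reads (23.5 CPM) in engorged and 4891 reads (90.5 CPM) in semi-engorged glands, 3.86-fold lower (3.63 to 4.10). These 3 were the most abundant of the called isomerases.

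The other called pair on this side is scarce and less certain in origin. The isomerase contig_26163, whose best match is a lancelet protein, had 347 reads (5.99 CPM) in engorged and 1118 reads (20.7 CPM) in semi-engorged glands. The isomerase contig_52817, whose best match is a sand fly protein, had 70 reads (1.21 CPM) in engorged and 226 reads (4.18 CPM) in semi-engorged glands. Both lost their call with a pseudocount of 10 CPM, and whether they come from the tick was not tested. The isomerase contig_52817 and the lancelet match contig_53773 (named after its values were seen) carry contig numbers of 50000 or more. Of the 5633 contigs numbered so, 66.0% have 0 engorged reads and 0% have 0 semi-engorged reads, beside 1.42% of the remaining contigs with 0 engorged reads. The isomerase contig_53773 had 0 reads in engorged and 20 in semi-engorged glands, 7.14-fold lower when its 0 is counted as 3 reads, a value without an interval.

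On the engorged side, fkbp6 (contig_4567) had 1349 reads (23.3 CPM) in engorged and 127 reads (2.35 CPM) in semi-engorged glands, 9.92-fold higher (8.26 to 12.0). In mice this protein is known for its part in the germ line. It was the only isomerase called higher in engorged glands. An hsp90 co-chaperone of the cyclophilin type (contig_4592) had 2649 reads (45.8 CPM) in engorged and 1231 reads (22.8 CPM) in semi-engorged glands. Its ratio of 2.01 (1.88 to 2.15) and log2 fold of 0.98 put it just short of the size rule, and 2 of the alternatives called it higher. A U-box cyclophilin (contig_11800), a type that joins an isomerase to a ubiquitin ligase domain, had 1664 reads (28.7 CPM) in engorged and 1043 reads (19.3 CPM) in semi-engorged glands, a ratio of 1.49 (1.38 to 1.61).

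Those 3 and the contigs of cwc27, a spliceosome cyclophilin, and of a cyclophilin of small nuclear ribonucleoproteins are the 5 isomerases that carry names of proteins known from outside the ER. They were grouped after their values were seen, so their shared sign is no separate support for the grouping. All 5 had log2 folds above 0, from 0.53 to 2.86, also with each of the 3 other scalings tried, and 1 was called. Their sum was 114 CPM in engorged and 54.5 CPM in semi-engorged glands. The 14 isomerases with a general name ranged from -2.72 to 0.95, with 6 of them above 0. Of the 14, 0 were called higher in engorged and 5 (35.7%) in semi-engorged glands, beside 13.0% and 15.5% of all tested contigs. The cyclophilin ligand is in neither of these groups.

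The remaining isomerases of at least 1000 reads in a library had small ratios. The isomerase contig_3969 had 9487 reads (164 CPM) in engorged and 7537 reads (139 CPM) in semi-engorged glands, a ratio of 1.17 (1.14 to 1.21). The isomerase contig_2239 had 3575 reads (61.8 CPM) in engorged and 2507 reads (46.4 CPM) in semi-engorged glands, a ratio of 1.33 (1.26 to 1.40). The isomerase contig_2682 had 1179 reads (20.4 CPM) in engorged and 984 reads (18.2 CPM) in semi-engorged glands, a ratio of 1.12 (1.03 to 1.22). All 3 were below the size rule, and with the ratio of abundant contigs set to 0 the log2 ratios of contig_3969 and contig_2682 turned to -0.0013 and -0.072. Another fkbp-type contig (contig_5612) had 2665 reads (46.0 CPM) in engorged and 4674 reads (86.5 CPM) in semi-engorged glands, 1.88-fold lower (1.79 to 1.97) and also below the size rule. The remaining contig named fkbp-type (contig_15154, named after its values were seen) went the other way. It had 502 reads in engorged and 216 reads in semi-engorged glands, a ratio of 2.17 (1.85 to 2.56), below the size rule at a log2 fold of 0.95.

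Among the 5 contigs with other ER names, sec63 (contig_3052), the translocon partner that recruits BiP through its J domain, had 2272 reads (39.2 CPM) in engorged and 6340 reads (117 CPM) in semi-engorged glands. It was 2.99-fold lower (2.85 to 3.14). The calcium pump of the sarcoplasmic and endoplasmic reticulum (contig_552), which fills the ER with the calcium that calreticulin binds, had 13822 reads (239 CPM) in engorged and 20894 reads (387 CPM) in semi-engorged glands, 1.62-fold lower (1.58 to 1.65) and below the size rule. A factor for the assembly of the vacuolar proton pump (contig_12298) had 1352 reads (23.4 CPM) in engorged and 1444 reads (26.7 CPM) in semi-engorged glands. The transitional ER ATPase (contig_24291), which pulls misfolded proteins out of the ER for degradation, had 279 reads (4.82 CPM) in engorged and 76 reads (1.41 CPM) in semi-engorged glands, 3.43-fold higher (2.65 to 4.48). Its call was lost with a pseudocount of 10 CPM and with the deposited RPKM.

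Per base of contig, the order of levels differed between the libraries. By deposited RPKM, which divides reads by contig length and library total, the disulfide isomerase fragment (contig_4781) with 232 RPKM (exact Poisson 95% interval 226 to 237) and isomerase 3 (contig_3443) with 227 RPKM (224 to 231) led the set in engorged glands, at ranks 455 and 460 of all contigs. They did not differ beyond counting error. They were followed there by isomerase-2 (contig_15) with 212 RPKM, BiP (First_Contig584) with 179 and the thioredoxin-type contig_79 with 158, and calreticulin (contig_5711) came sixth with 147 RPKM (144 to 149.6). The peptidyl-prolyl isomerase contig_2239 had 142 RPKM (137 to 146) in engorged glands, within counting error of calreticulin. In semi-engorged glands calreticulin came first with 2023 RPKM, at rank 54. It was followed by contig_4781 with 1841 RPKM, contig_3443 with 1704, BiP with 1002 and contig_15 with 669. Of the 100 contigs with the highest RPKM, 0 were members in engorged glands and 3 in semi-engorged glands.

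**Figure D3:**
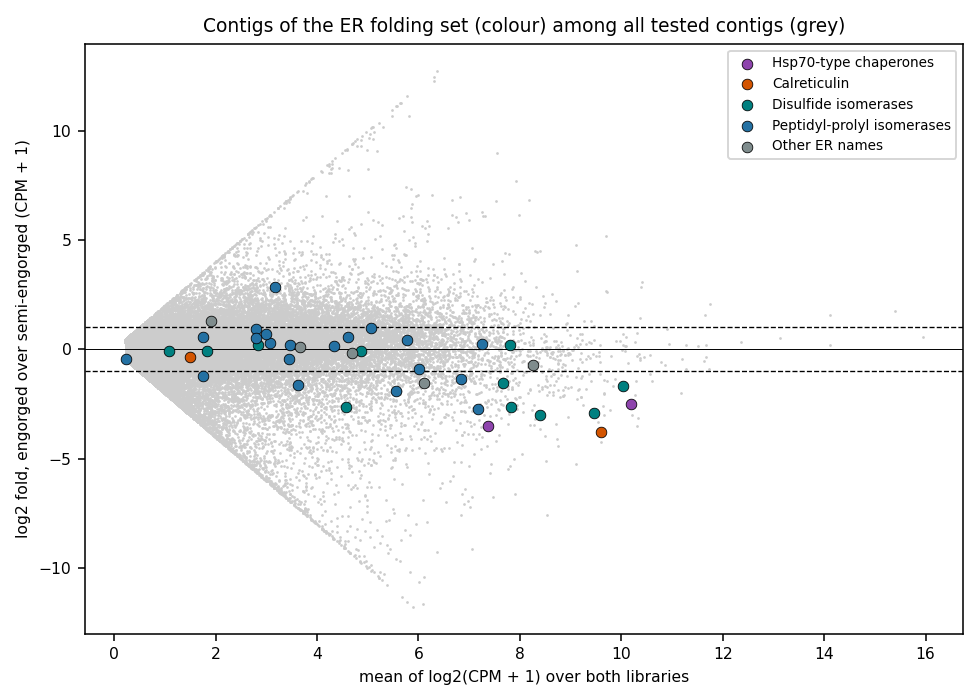
Each tested contig by its mean log2(CPM + 1) over both libraries on the x axis and its log2 fold on the y axis, with members in colour by role, all tested contigs in grey and dashed lines at a log2 fold of 1 in either direction. The members toward the right lie mostly below the lower dashed line, and those toward the left mostly between the lines.

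Level and fold went together within the set. The level used, a mean over both libraries, holds the semi-engorged level that also enters the fold. The split below is thus no separate support for a direction. Of the 20 members with the higher mean log2(CPM + 1), 0 were higher in engorged glands and 12 in semi-engorged glands, with a median log2 fold of -1.54. Of the 20 with the lower mean, 2 were higher in engorged and 3 in semi-engorged glands, with a median of 0.18. As shares of the 20 these counts lie near those of all tested contigs at or below the same level, of which 11.7% were higher in engorged and 14.8% in semi-engorged glands, with a median of -0.063. All tested contigs above the same level had a median of 0.19, with 25.7% higher in engorged and 21.8% in semi-engorged glands. The 10 members with most reads made up 76.7% of the member reads in engorged and 90.5% in semi-engorged glands. The 13 members with neither 1000 reads in a library nor a call had log2 folds between -0.45 and 0.95 and summed to 79.7 CPM in engorged and 66.7 CPM in semi-engorged glands.

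Other steps of the secretory route were described with 6 lists of words, with the 40 contigs left out. Beside the counts of each list stand the shares of all tested contigs, 13.0% higher in engorged and 15.5% in semi-engorged glands. N-glycosylation, which attaches the sugar chains that calreticulin reads, had 0 of 8 tested contigs higher in engorged glands and 7 in semi-engorged glands, with a median log2 fold of -2.77. Its most abundant contig (contig_7655, an oligosaccharyl transferase) had 4228 reads in engorged and 26391 reads in semi-engorged glands, and a dolichyl-diphosphooligosaccharide transferase subunit (contig_3644) was 10.3-fold lower in engorged glands (9.82 to 10.7), with 2304 reads in engorged and 22046 reads in semi-engorged glands. The sum of the list was 236 CPM in engorged and 1698 CPM in semi-engorged glands, 7.20-fold lower. The 6 contigs of the oligosaccharyl transferase were 5.33- to 10.3-fold lower.

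Translocation and signal peptide removal had 0 of 12 contigs higher in engorged and 5 in semi-engorged glands, with a median of -0.90. A signal peptidase contig (contig_3222), the enzyme that cuts the entry signal off, had 2430 reads in engorged and 16522 reads in semi-engorged glands, and the complex subunit spc25 (contig_3186) had 10330 reads in engorged and 41455 reads in semi-engorged glands. A pair of contigs matched through parts of other words, and without them, a choice made after seeing the data, the counts of 10 were 0 in engorged and 5 in semi-engorged glands and the median -1.08. With abundant contigs centred at 0, 8 contigs were higher in semi-engorged glands in the full and in the trimmed list. ER-associated degradation had 0 of 6 contigs higher in engorged and 4 in semi-engorged glands, but 1 of these, the ligase synoviolin (contig_3683, 3925 reads in engorged and 7390 in semi-engorged glands), lay at a log2 fold of -1.002. The other 3 are sel-1 contigs, a partner of that ligase, and a pair of them (contig_8457 and contig_8011) share a best-matching protein. The 1 contig of the list above 0 is also a sel-1 contig (contig_4794, named after its values were seen). It had 1750 reads in engorged and 842 reads in semi-engorged glands, a ratio of 1.94 (1.79 to 2.11), below the size rule. The transitional ER ATPase (contig_24291), 3.43-fold higher in engorged glands and called so, is a member of the set and not counted here. With totals without the 50 most abundant contigs the counts of 6 were 1 in engorged and 2 in semi-engorged glands.

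The list of ER to Golgi coats had 1 of 20 contigs higher in engorged and 10 in semi-engorged glands, with a median of -0.91. It also caught cytochrome P450 contigs through part of a name, and without these, a choice also made after seeing the data, the counts of 12 were 0 in engorged and 8 in semi-engorged glands, with a median of -1.29. The sec24 coat contig (contig_5049), the most abundant, was 1.76-fold lower in engorged glands (1.71 to 1.81). The cytosolic heat shock and co-chaperone list had 10 of 55 contigs (18.2%) higher in engorged and 7 (12.7%) in semi-engorged glands, with a median of -0.024. Both shares lie near those of all tested contigs. The list also caught mitochondrial names. The 60 kDa heat shock protein (contig_6937) and a mitochondrial chaperonin (contig_18650), named after their values were seen, are among the 7. Neither the counts nor the sign of the median held across the scalings. The counts were 4 in engorged and 11 in semi-engorged glands with abundant contigs centred at 0, and 15 in engorged and 5 in semi-engorged glands with totals without the 50 most abundant contigs, so no direction is given for this list. The list of the unfolded protein response, the signalling that raises chaperone levels under ER stress, caught 4 contigs, and all are initiation factor 2-alpha kinases numbered 1 or 4, which in mammals sense haem or amino acid shortage rather than the ER. Of the 4, 1 was higher in engorged and 0 in semi-engorged glands, with 3 above 0 and a median log2 fold of 0.72. The called contig, kinase 1 (contig_11556), had 567 reads in engorged and 118 reads in semi-engorged glands, 4.49-fold higher. A scarcer contig with the same best-matching protein (contig_18175, named after its values were seen) had 19 reads in engorged and 40 reads in semi-engorged glands, 2.26-fold lower (1.28 to 4.12). Another of that protein (contig_38681, also named after its values were seen) had 45 reads in engorged and 15 reads in semi-engorged glands, 2.80-fold higher (1.53 to 5.41). None of the 4 names is that of an ER stress sensor.

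**Figure D4:**
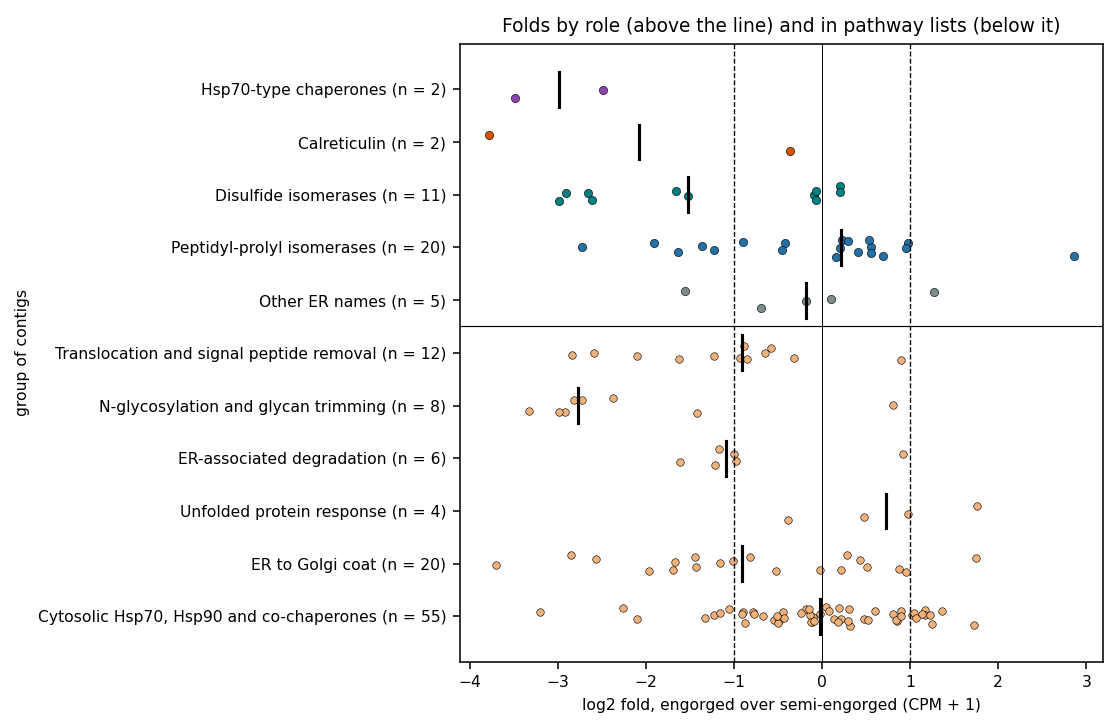
Log2 fold, engorged over semi-engorged, on the x axis for each contig of the 5 roles (above the horizontal line) and of the 6 pathway lists with members left out (below it), with black bars at the medians and dashed lines at a log2 fold of 1 in either direction. Most N-glycosylation contigs lie between -3.33 and -2.37. The cytosolic list, which also holds mitochondrial names, is spread around 0. The disulfide isomerases split into a group below -1.5 and a group near 0.

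Markers were read beside these values. Of 351 contigs with salivary family names, 75 of the 347 tested (21.6%) were higher in engorged glands and 163 (47.0%) in semi-engorged glands. Of all tested contigs these shares were 13.0% and 15.5%. The salivary contigs made up 1.30% of reads in engorged glands and 2.29% in semi-engorged glands, and 53 of them had 0 reads in engorged glands against 24 in semi-engorged glands. Muscle markers (88 contigs) held 0.291% in engorged against 0.261% in semi-engorged glands, with 0 contigs at 0 reads in either. Haemocyte and fat body markers (36 contigs) held 0.214% in engorged against 0.209% in semi-engorged glands, with 4 against 1 contigs at 0 reads. Nerve markers (42 contigs) held 0.0727% in engorged against 0.106% in semi-engorged glands, with 1 against 2 at 0 reads. Midgut and cuticle markers (45 contigs) held 0.0308% in engorged against 0.0501% in semi-engorged glands, with 2 against 4 at 0 reads. Calls in engorged and semi-engorged glands were 5 and 12 of 38 tested nerve contigs, and 5 and 11 of 39 for midgut and cuticle. For muscle they were 13 and 11 of 81, and for haemocyte and fat body 3 and 0 of 30. The part of all these markers in the folds of the chaperones was not tested. Over 17032 contigs with 100 or more reads in each library the median log2 ratio was 0.23, and with this shift removed the log2 ratio of calreticulin (contig_5711) was -4.02, of grp170 -3.75, of BiP -2.72 and of isomerase-2 (contig_15) -1.89.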

How the data were processed

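Each contig has, per the file headers of the deposited table, its count of reads and its RPKM in either library. The counts are whole numbers with no normalization; RPKM are reads scaled by the authors to contig length and library size. Per the labels' protocols, glands were frozen in liquid nitrogen, RNA was taken with Trizol, and TruSeq libraries were made from it. The submitters' processing notes name CASAVA 1.8, TopHat and Cufflinks without a role; for the assembler, annotation search and counter, the tool is not given in the sources used here. Contig lengths worked out from count and RPKM came within 6.24e-06 bases of whole numbers, running from 367 to 4927 bases (median 1505) in the set and with a median of 562 over all contigs.

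Counts were scaled to CPM by the column totals, with a pseudocount of 1 CPM in log2 folds. The read minimum left out 6392 contigs. Ratios are CPM ratios without pseudocount, with exact Clopper-Pearson 95% intervals. A count of 0 was set to 3 reads (0.0518 CPM in the engorged, 0.0555 CPM in the semi-engorged library). With 1 library per stage no p-value was computed and no count model was fitted. Roles and lists are word patterns; a name went to the first role it matched.

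Named members had at least 1000 reads in a library, or a call and 100 reads on the higher side (27 of 40); in each pathway list the most abundant contig and the largest fold were eligible. The members and lists were chosen with earlier results of these data known. Alternatives were 3 scalings (abundant contigs centred at 0, edgeR 4.0.16 TMM factors, totals without the 50 most abundant contigs of each library), pseudocounts of 0.1 and 10, no filter and a filter of 100 reads, a log2 threshold of 2, RPKM, and sums over identical descriptions. The functions were tested on simulated counts. Python 3.11.15, pandas 2.3.3 and scipy 1.17.1 were used. Sequences were not used here, and none is shown.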

Additional observations from a re-analysis of the deposited data

How the results depend on the processing

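The count of members higher in semi-engorged glands stayed within 1.5 times of 15 under all alternatives run (12 to 16) other than the log2 threshold of 2, which gave 8. The count higher in engorged glands, 2, is too small to rank: it was 4 with totals without the 50 most abundant contigs and with a pseudocount of 0.1, and 1 with a pseudocount of 10, with the deposited RPKM, without other matches of the words (calcium pump, cyclophilin ligand, proton pump assembly factor, transitional ER ATPase) and at the threshold of 2. The median log2 fold was below 0 under all alternatives run, between -0.45 and -0.079. The ratio of the summed CPM, 0.228, was 0.194 with abundant contigs centred at 0, 0.209 with RPKM, 0.241 without BiP and 0.215 without other matches of the words. It was 0.267 with totals without the 50 most abundant contigs of each library, 82 in all. These include 4 members, which were left out of the totals but kept in the sum. No called member changed sign under another scaling, pseudocount or unit. The fkbp-type contig_5612 became called at -1.13 with abundant contigs centred, and contig_26163 and contig_52817 lost their call at -0.94 and -0.34 with a pseudocount of 10. The hsp90 co-chaperone contig_4592 became called at 1.204 with totals without the 50 most abundant contigs. The call of contig_24291 was lost at 0.38 with a pseudocount of 10 and at 0.90 with RPKM. Peptidyl-prolyl isomerases higher in engorged glands, 1 of 20, were 3 with totals without the 50 most abundant contigs and with a pseudocount of 0.1. Those higher in semi-engorged glands, 5, were 3 with a pseudocount of 10 and 2 with sums over identical descriptions. The cytosolic list, 10 in engorged and 7 in semi-engorged glands, gave 1 in engorged and 3 in semi-engorged glands with a pseudocount of 10, and 5 in engorged and 3 in semi-engorged glands with summed descriptions. ER-associated degradation in semi-engorged glands, 4, was 2 with either of these. Engorged counts of 0 or 1 in the other pathway lists ran from 0 to 3. The cause of these moves was not tested. No paired analysis was possible because each stage has 1 library. Members under 100 reads in a library have wide intervals, and 34 of 40 had at least 100 in both.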

Other observations

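Among cytosolic and mitochondrial chaperones, contigs named after their values were seen lay on both sides. The contigs named heat shock protein 70L (contig_8804) and heat shock protein 70 (contig_8235) had 1037 and 1667 reads in engorged glands, against 383 and 573 reads in semi-engorged glands. Another contig named heat shock 70 kDa protein (contig_10273) had 1632 reads in engorged and 2839 reads in semi-engorged glands, 1.86-fold lower (1.75 to 1.98) and below the size rule. The 60 kDa heat shock protein (contig_6937), the folding chamber of mitochondria, had 1232 reads in engorged and 5118 reads in semi-engorged glands, and a mitochondrial chaperonin (contig_18650) had 347 reads in engorged and 1754 reads in semi-engorged glands. A small heat shock protein (contig_44049), the largest fold of its list, had 4 reads in engorged and 478 reads in semi-engorged glands, a ratio of 0.0078. The ergic-53 lectin (contig_8787), which carries glycoproteins from the ER to the Golgi, had 933 reads in engorged and 6629 reads in semi-engorged glands, 7.61-fold lower (7.11 to 8.16), and a further contig of that name (contig_16360) was 7.53-fold lower (6.42 to 8.87).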
